A study of Mus musculus with 72 samples.

Results

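White fat of *Bmal1*-KO mice was compared with lung of mice of the same genotype, over 7 of 8 white fat libraries and all 8 lung libraries, which are 15 of the 72 RNA-Seq libraries of the study. The study asked how *Bmal1* returned to skeletal muscle affects global *Bmal1*-KO mice, and it sequenced tissues other than muscle at 40 weeks of age. All mice behind the 15 libraries were male homozygotes for the global *Bmal1* (*Arntl*) deletion, were 40 weeks old, and gave tissue at ZT1, an hour after lights on. The KO group (3 white fat and 4 lung libraries) is labelled with no vector, and whether these mice had a control injection is not stated. The KO+AAV group (4 libraries of each tissue) had received, on postnatal day 5, an AAV9 vector carrying HA-tagged *Bmal1* under CK6, a promoter used for expression in skeletal muscle. No WT white fat or lung was analysed here, so differences between the tissues are differences within mice that lack *Bmal1*, and no effect of losing *Bmal1* can be read from them. The white fat depot is not stated, and the labels number the libraries without naming the mice, so *P* values measure the spread between these libraries.

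White adipocytes store triglyceride in a large lipid droplet and release it as fatty acids and glycerol when hormones activate lipolysis. They take up fatty acids and glucose from blood, make fatty acids of their own, and secrete hormones such as adiponectin and leptin. Their gene program is built around PPARγ and C/EBPα, whereas lung is made of alveolar and airway epithelium, a dense capillary bed, stroma, and immune cells. The labelled tissues were checked with *Adipoq* (adiponectin), *Lep* (leptin), and *Plin1* (perilipin 1, the coat protein of the lipid droplet), and with markers of lung epithelium.

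The promoters of these 3 markers are shown because the transcripts that name the tissue start there. Each runs from 250 bases before to 50 bases after the RefSeq transcript start, 5′ to 3′ on the strand of the gene, in build GRCm38.p6. *Adipoq* lies on the plus strand (chr16:23146286-23146585), *Lep* on the plus strand (chr6:29059971-29060270), and *Plin1* on the minus strand (chr7:79732727-79733026). Capitals mark CCAAT on either strand (written ATTGG where it is on the other strand) and TTGCNNAA, the shape of the site that C/EBP factors bind.
Adipoq: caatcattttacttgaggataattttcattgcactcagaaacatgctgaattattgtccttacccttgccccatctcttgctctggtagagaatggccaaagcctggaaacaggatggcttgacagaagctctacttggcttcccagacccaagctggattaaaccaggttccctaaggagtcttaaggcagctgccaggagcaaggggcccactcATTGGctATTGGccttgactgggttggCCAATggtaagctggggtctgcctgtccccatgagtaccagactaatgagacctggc
Lep: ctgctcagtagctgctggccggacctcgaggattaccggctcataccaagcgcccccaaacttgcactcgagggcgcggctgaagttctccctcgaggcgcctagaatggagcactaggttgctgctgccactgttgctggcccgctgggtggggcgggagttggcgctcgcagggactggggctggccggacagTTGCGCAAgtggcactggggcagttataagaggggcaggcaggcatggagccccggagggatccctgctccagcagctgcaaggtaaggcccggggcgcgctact
Plin1: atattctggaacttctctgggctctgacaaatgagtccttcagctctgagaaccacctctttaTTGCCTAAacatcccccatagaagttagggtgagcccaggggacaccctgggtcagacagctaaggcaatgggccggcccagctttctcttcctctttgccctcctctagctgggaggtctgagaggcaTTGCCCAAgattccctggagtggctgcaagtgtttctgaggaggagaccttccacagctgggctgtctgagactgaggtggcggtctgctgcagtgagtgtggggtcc
The *Adipoq* window held CCAAT 3 times, at -34 and -27 on the other strand and at -7 on its own strand, counted from the transcript start. The *Lep* window held TTGCGCAA at -55, which reads the same on both strands. The *Plin1* window held TTGCCTAA at -187 and TTGCCCAA at -58. None of the 3 windows held AGGTCA (the sequence of a nuclear receptor half-site), CACGTG (the E-box sequence that BMAL1 with CLOCK binds), or TATAAA, on either strand. TTGCNNAA was present in 12.2% and CCAAT in 41.1% of the 27025 genes with a RefSeq promoter, and in 151 and 517 of the 1164 genes with a promoter that were called higher in white fat, at 2-fold or more as set out with the gene counts. AGGTCA was present in 18.1% of all genes with a promoter, CACGTG in 8.09%, and TATAAA in 15.7%. TTGCNNAA can overlap CCAAT by its last bases. A match describes letters only, and binding was not measured here.

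Values are counts per 1000000 reads counted on genes (CPM), from 44701869 to 50755829 reads per white fat library and 38180622 to 49821579 per lung library. A single read is worth 0.0197 to 0.0262 CPM, and 3 reads, taken as the floor, 0.0591 to 0.0786 CPM. Several libraries stood apart. The white fat KO replicate 2 library, left out of all values unless named, held *Gpx5*, a secreted enzyme of the epididymis, at 18005 CPM against at most 0.0457 CPM in the 15 libraries, with *Adipoq* at 529 CPM. In white fat, KO replicate 3 and KO+AAV replicate 2 held the cilia regulator *Foxj1* at 173 and 118 CPM, against at most 0.531 CPM in the other 5, and the epithelial keratin *Krt8* at 204 and 115 CPM, against at most 14.3 CPM. *Ucp1*, the uncoupling protein of brown adipocytes, was at 326 CPM in white fat KO+AAV replicate 3 and 137 CPM in lung KO replicate 3. *Adipoq* exceeded 10 CPM in 4 of the 8 lung libraries. Counts over all genes are therefore also given without these libraries, and those of a list where they then moved by more than 1.5 times.

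*Arntl*, the deleted gene, was read first. It was at 23.4, 25.02, and 19.4 CPM in the 3 KO and 22.9, 24.7, 17.2, and 17.6 CPM in the 4 KO+AAV white fat libraries. In lung it was at 30.97, 34.5, 32.8, and 34.5 CPM in KO and 34.95, 41.3, 32.98, and 36.6 CPM in KO+AAV. All lung libraries exceeded all white fat libraries, and in neither tissue did the KO+AAV libraries stand apart from KO. The difference of -0.67 (SE 0.0901, adjusted *P* = 1.32e-05), white fat minus lung on the log2(CPM + 1) scale in limma, was under 2-fold. The values are totals over the gene, so which exons the reads come from, and whether the deleted part is among them, cannot be seen.

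The adipocyte markers separated the tissues without overlap. *Adipoq* was at 2446, 2282, and 3616 CPM in KO and 2978, 2188, 2689.8, and 3059.7 CPM in KO+AAV white fat. In lung it was at 0.0457, 0.439, 42.8, and 1.67 CPM in KO and 27.8, 2.96, 56.2, and 13.5 CPM in KO+AAV. The lowest white fat library was thus far above the highest lung library, while lung libraries differed among themselves by orders of magnitude. *Lep* was at 1698, 1130.4, and 1965 CPM in KO and 1997, 437, 1798, and 1569.5 CPM in KO+AAV white fat, and at 0 to 8.604 CPM (median 0.553) in lung, with 0 reads in lung KO replicates 1 and 2. KO+AAV replicate 2 was the low white fat library for *Lep*. *Plin1* ranged from 1366 to 3066 CPM (median 2676) in white fat and 0.183 to 73.7 CPM (median 8.33) in lung. The differences were 8.41 (SE 0.7305, adjusted *P* = 1.62e-07) for *Adipoq*, 9.34 (SE 0.528, adjusted *P* = 1.81e-09) for *Lep*, and 8.16 (SE 0.831, adjusted *P* = 8.38e-07) for *Plin1* by limma. In exact two-sided permutations of the 15 libraries each of these 3 genes and *Arntl* gave *P* = 0.0003108, the smallest that the 6435 arrangements allow. Per kilobase of exon, mean levels in white fat were 1992 CPM for *Adipoq*, 553 for *Plin1*, and 451 for *Lep*. A bulk library cannot tell fewer cells of a type from less RNA per cell.

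**Figure D1:**
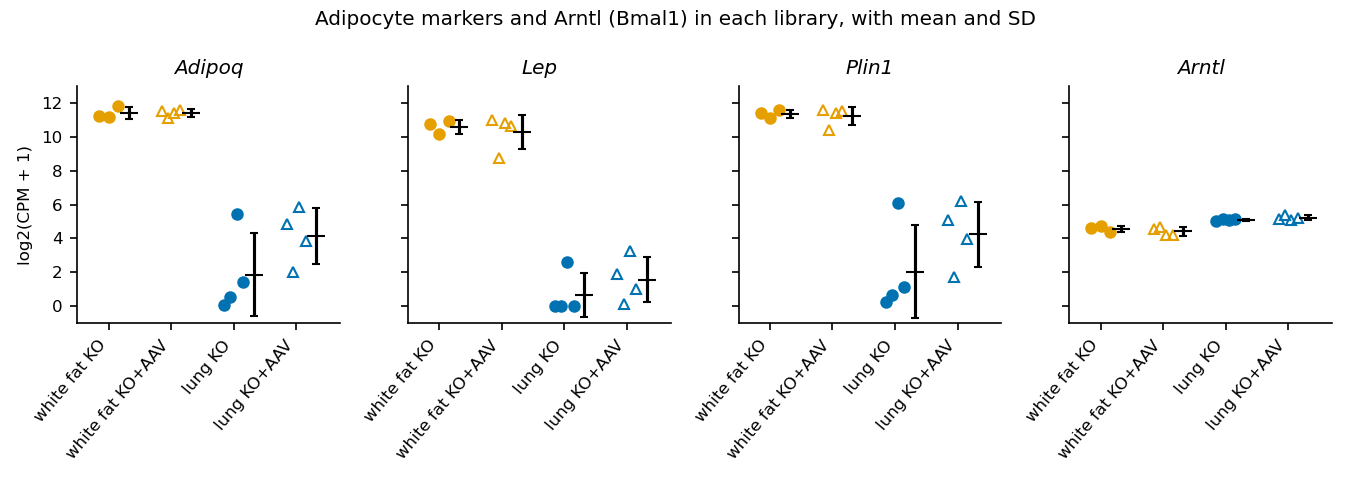
*Adipoq*, *Lep*, *Plin1*, and *Arntl* as log2(CPM + 1) in each library, by tissue and group. Points are libraries, with the mean and SD of each group beside them. The 3 adipocyte markers lie far higher in all white fat than in all lung libraries, lung values spread widely, and *Arntl* is slightly higher in lung.

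Across the 21309 genes tested, 1659 were higher and 3881 lower in white fat, at an adjusted *P* under 0.05 in limma and a difference of at least 2-fold, which is called here. These are 7.79% and 18.2% of the genes tested, and 26.0% in both directions, so a call by itself is common. The libraries of the tissues did not overlap for 42.5% of the genes. The median difference over all genes was -0.18 on the log2(CPM + 1) scale, and 29.9% of the calls were higher. With TMM scaling the median was -0.04 and 39.4% of 5489 calls were higher, and with median-of-ratios size factors over both tissues -0.03 and 40.1% of 5487. KO libraries alone gave 1711 higher and 3572 lower genes, and KO+AAV libraries alone 1583 and 4006. Without the 2 white fat libraries with *Foxj1* the counts were 1710 and 4483, without the 2 with *Ucp1* 1659 and 3773, and without the 4 lung libraries with *Adipoq* above 10 CPM 1731 and 3693. With white fat KO replicate 2 added they were 1556 and 3684.

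The 10 genes with the largest differences toward white fat were *Lep*, *Car3* (a carbonic anhydrase of fat and muscle), *Adipoq*, *Plin1*, *Cfd* (adipsin, complement factor D), *Fabp4* (the fatty acid binding protein of adipocytes), *Pck1* (which makes glycerol backbone in fat), *Retn* (resistin), *Aoc3* (an amine oxidase of the adipocyte surface), and *Cidec* (which fuses lipid droplets). *Car3* ranged from 9518 to 20352 CPM (median 16898) in white fat and 0.434 to 343 CPM (median 54.5) in lung. *Fabp4* ranged from 10447 to 13240 CPM (median 11635) in white fat and 9.38 to 437 CPM (median 55.4) in lung, and *Cfd* from 5822 to 7806 CPM (median 7084) in white fat and 0.15997 to 236 CPM (median 51.7) in lung. White fat libraries lay within a few-fold of each other for these genes, lung libraries did not, and the tissues did not overlap. The 10 differences ran from 9.34 for *Lep* to 7.57 for *Cidec* (adjusted *P* = 8.82e-09), with *Aoc3* at 7.61 and *Retn* at 7.64. The 10 largest in the other direction were genes of lung, *Scgb1a1* and *Cyp2f2* of club cells, *Sftpc*, *Sftpb*, and *Sftpa1* of surfactant, *Cxcl15*, *Sec14l3*, *Scgb3a2*, *Ager* of alveolar type 1 cells, and *Chil1*. *Scgb1a1* (club cell secretory protein) ranged from 10.8 to 84.1 CPM (median 15.4) in white fat and 36775 to 55341 CPM (median 49653) in lung, a difference of -10.93 (SE 0.288, adjusted *P* = 7.58e-13). *Sftpc* (surfactant protein C) ranged from 2.62 to 18.5 CPM (median 5.46) in white fat and 9141 to 16977 CPM (median 11593) in lung. Their levels in white fat were low but above the 3-read floor in each library.

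Secreted proteins of fat were mostly higher in white fat. Of 20 genes listed, 11 were higher and 5 lower, against 7.79% and 18.2% of all genes tested. The median difference was 2.64 against -0.18 over all genes. The counts of the lists that follow stand beside the same shares. *Retn* ranged from 1226 to 1682 CPM (median 1599.7) in white fat and 0.15997 to 43.2 CPM (median 8.32) in lung. *Agt* (angiotensinogen, the precursor of angiotensin) ranged from 491 to 873 CPM (median 637) in white fat and 4.98 to 9.44 CPM (median 7.96) in lung, a difference of 6.27 (SE 0.128, adjusted *P* = 5.53e-14). *Agt* stayed within a narrow range in each tissue, whereas *Retn* varied widely among lung libraries. *Rbp4*, the retinol carrier, ranged from 179.8 to 479 CPM (median 416) in white fat and 13.8 to 23.01 CPM (median 16.2) in lung. *Nrg4* (neuregulin 4) differed by 3.74 (SE 0.2804, adjusted *P* = 3.47e-08) and the Wnt inhibitor *Sfrp5* by 4.54 (SE 0.233, adjusted *P* = 6.33e-10). Others of the list were higher in lung. *Apln* (apelin) ranged from 3.602 to 9.402 CPM (median 5.82) in white fat and 13.7 to 45.5 CPM (median 40.8) in lung, and *Vegfa*, the endothelial growth factor, from 296 to 690.4 CPM (median 345) in white fat and 806 to 1234 CPM (median 1018) in lung, differences of -2.50 and -1.42. *Hp* (haptoglobin) ranged from 1783 to 3132 CPM (median 3039) in white fat and 1124 to 1647 CPM (median 1508) in lung without overlap, and its difference of 0.97 (SE 0.135, adjusted *P* = 1.78e-05) lay just under 2-fold. It passed 2-fold with TMM scaling (1.23) and without white fat KO+AAV replicate 2 (1.07), lung KO replicate 2 (1.005), or lung KO replicate 4 (1.002). Without the 4 lung libraries with *Adipoq*, the lower genes of the list were 3 rather than 5.

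The transcription factors of the adipocyte program were higher in white fat in 12 of 20 cases and lower in 3 (median 1.58). *Pparg*, the nuclear receptor that drives adipocyte differentiation, ranged from 221 to 483 CPM (median 348) in white fat and 9.53 to 21.96 CPM (median 13.1) in lung, and the difference was 4.46 (SE 0.183, adjusted *P* = 6.45e-11). *Cebpa*, its partner in mature adipocytes, ranged from 587 to 1094 CPM (median 968) in white fat and 97.3 to 147 CPM (median 117) in lung. Neither gene overlapped between tissues. *Ebf2*, which marks committed fat precursors, ranged from 23.7 to 32.9 CPM (median 29.4) in white fat and 0.229 to 1.45 CPM (median 0.5202) in lung. *Zfp423*, a determinant of preadipocytes, and *Mlxipl* (ChREBP, the glucose-sensing activator of lipogenesis) differed by 3.71 (SE 0.157, adjusted *P* = 8.99e-11) and 4.57 (SE 0.285, adjusted *P* = 5.1e-09). *Srebf1*, which activates fatty acid synthesis genes, differed by 2.11 (SE 0.161, adjusted *P* = 4.19e-08). *Cebpb*, which acts early in differentiation, went the other way, from 32.9 to 100.2 CPM (median 57.1) in white fat and 90.3 to 159 CPM (median 106) in lung. Its difference of -1.04 (SE 0.178, adjusted *P* = 0.000124) was within 2-fold with TMM scaling (-0.79) and without white fat KO replicate 1 (-0.95), white fat KO+AAV replicate 1 (-0.94), or lung KO+AAV replicate 4 (-0.97), and its exons overlap *Tmem189* on the other strand. *Prdm16*, a regulator of brown and beige fat, was lower, at -1.88 (SE 0.128, adjusted *P* = 1.29e-08).

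Of 16 lipid droplet proteins, 9 were higher and 2 lower (median 1.13), with 1 lower without the 4 lung libraries with *Adipoq*. *Plin4*, a perilipin of adipocytes, ranged from 3832 to 5930 CPM (median 4958) in white fat and 9.896 to 93.9 CPM (median 34.5) in lung, and *Cidec* from 2251 to 4539 CPM (median 3944) in white fat and 5.39 to 74.6 CPM (median 15.1) in lung. Both were far apart between tissues. *Plin2*, the perilipin of most other cells, ranged from 187 to 482 CPM (median 296) in white fat and 109 to 163 CPM (median 122) in lung, with a smaller difference of 1.16 (SE 0.152, adjusted *P* = 1.07e-05) that was within 2-fold in KO libraries alone (0.94). *Hilpda*, a hypoxia-inducible lipase inhibitor, was lower, at 10.3 to 29.9 CPM (median 18.3) in white fat and 75.6 to 245 CPM (median 111) in lung.

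All 22 genes of lipolysis listed were called, 17 higher and 5 lower (median 3.69), and with TMM scaling 3 were lower rather than 5. The lipases that act in turn on triglyceride were each higher. *Pnpla2* (ATGL) ranged from 2291 to 5017 CPM (median 3295) in white fat and 137 to 226 CPM (median 183) in lung, *Lipe* (hormone-sensitive lipase) differed by 3.95 (SE 0.2096, adjusted *P* = 9.38e-10), and *Mgll* (monoglyceride lipase) by 2.79 (SE 0.121, adjusted *P* = 1.15e-10). Receptors that start or stop lipolysis split by subtype. *Adrb3*, the β-adrenergic receptor of adipocytes, was at 551, 578, and 784 CPM in KO and 849, 964, 746, and 922 CPM in KO+AAV white fat, and at 10.4 to 27.03 CPM (median 18.3) in lung. *Adrb1*, another β-receptor, was at 4.201 to 19.3 CPM (median 6.03) in white fat and 59.2 to 77.9 CPM (median 64.3) in lung. The differences were 5.35 (SE 0.175, adjusted *P* = 6.85e-12) for *Adrb3* and -3.07 (SE 0.203, adjusted *P* = 9.5e-09) for *Adrb1*, without overlap. Per kilobase of exon, *Adrb3* averaged 228 CPM and *Adrb1* 2.36 CPM in white fat, against 5.35 and 19.3 CPM in lung. Of the *Adrb3* exon bases, 24.9% lie under *Gm45470* on the other strand.

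*Hcar1*, the lactate receptor that restrains lipolysis, ranged from 94.6 to 182 CPM (median 119) in white fat and 0.434 to 5.06 CPM (median 1.72) in lung. *Mc2r*, the ACTH receptor, ranged from 21.6 to 55.1 CPM (median 52.7) in white fat and 0 to 0.134 CPM (median 0.0467) in lung, so that no lung library exceeded a few reads. *Aqp7*, the glycerol channel of adipocytes, ranged from 107 to 167 CPM (median 126) in white fat and 0 to 3.52 CPM (median 0.694) in lung. All 3 were without overlap. The natriuretic peptide receptors also split. *Npr1*, which signals through cGMP, was lower at -1.25 (SE 0.0999, adjusted *P* = 6.91e-08), within 2-fold with TMM scaling (-0.996). *Npr3*, which clears the peptides, was higher at 3.34 (SE 0.364, adjusted *P* = 1.65e-06), with KO+AAV replicate 2 at 193 CPM below the other white fat libraries.

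For fatty acid uptake and triglyceride synthesis, 13 of 20 genes were higher and 3 lower (median 3.15). *Lpl* (lipoprotein lipase) ranged from 5255 to 11387 CPM (median 9992) in white fat and 299 to 547 CPM (median 442) in lung, a difference of 4.40 (SE 0.184, adjusted *P* = 7.88e-11). *Cd36*, the fatty acid transporter, was abundant in both tissues, at 2933 to 4180.1 CPM (median 4045) in white fat and 1083 to 1777 CPM (median 1209) in lung, and the difference of 1.62 (SE 0.114, adjusted *P* = 1.75e-08) was smaller. *Gpihbp1*, which holds LPL on capillaries, was not called (-0.62, SE 0.216, adjusted *P* = 0.0195). *Dgat2*, which makes triglyceride, ranged from 510.0 to 3006 CPM (median 2332) in white fat and 3.91 to 67.4 CPM (median 17.2) in lung. *Dgat1*, the other enzyme of this step, differed by 3.29 (SE 0.118, adjusted *P* = 1.77e-11). *Pck1* ranged from 1070 to 4818 CPM (median 2926) in white fat and 0.6399 to 121 CPM (median 14.7) in lung, without overlap.

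Among the lists of fat metabolism, white fat libraries were farthest apart for the summed level of de novo lipogenesis. *Fasn* (fatty acid synthase) was at 15365, 2604, and 8160.2 CPM in KO and 5355, 595, 12434, and 9508 CPM in KO+AAV white fat, and at 316 to 1113 CPM (median 581) in lung. *Scd1* (stearoyl-CoA desaturase) was at 48424, 16990, and 12815 CPM in KO and 19054, 2525, 27874, and 35609 CPM in KO+AAV white fat, and at 1017 to 2759 CPM (median 1827) in lung. For both genes the lowest white fat library, KO+AAV replicate 2, fell within the range of lung and the other 6 were above it. Of 21 genes, 15 were higher and 4 lower (median 2.21), while the summed level of the list ranged from 7529 to 79253 CPM in white fat and from 3747 to 7006 CPM in lung. *Acly* (ATP citrate lyase) differed by 1.87 (SE 0.441, adjusted *P* = 0.0017) with overlap, *Acaca* (acetyl-CoA carboxylase 1) by 3.22 (SE 0.414, adjusted *P* = 8.8e-06), and *Thrsp*, a lipogenic factor of fat and liver, by 6.04 (SE 0.783, adjusted *P* = 9.63e-06). The desaturase *Scd2* was lower, at 119 to 492 CPM (median 222) in white fat and 516 to 1022 CPM (median 727) in lung.

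Of 20 genes of insulin action and glucose handling, 11 were higher and 2 lower (median 1.15). Lower genes were 1 without the 4 lung libraries with *Adipoq* and 3 without the 2 white fat libraries with *Foxj1*. *Slc2a4* (GLUT4, the insulin-responsive glucose transporter) ranged from 158 to 360.1 CPM (median 306) in white fat and 1.55 to 37.6 CPM (median 13.5) in lung. *Slc2a1* (GLUT1, the transporter of most cells) ranged from 8.91 to 31.98 CPM (median 14.03) in white fat and 31.9 to 49.97 CPM (median 42.6) in lung. The tissues did not overlap for *Slc2a4* and touched for *Slc2a1*, with differences of 4.46 (SE 0.363, adjusted *P* = 8.08e-08) and -1.29 (SE 0.234, adjusted *P* = 0.000216). *Hk2*, the insulin-regulated hexokinase, was higher by 2.81 (SE 0.195, adjusted *P* = 1.52e-08) and *Hk1* lower, at -1.09 (SE 0.0913, adjusted *P* = 1.11e-07), the latter within 2-fold with TMM scaling (-0.84). *Insr*, the insulin receptor, differed by 1.21 (SE 0.101, adjusted *P* = 1.08e-07).

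Pairs of related genes were set side by side. In 9 of 19 pairs one gene was higher and the other lower in white fat, in 4 both were higher, in 5 the first was higher and the second not called, and in 1 neither was called. Of all genes tested, 7.79% were higher and 18.2% lower. Beside the pairs above, *Pde3b*, the phosphodiesterase through which insulin stops lipolysis, ranged from 456 to 655 CPM (median 566) in white fat and 7.98 to 24.3 CPM (median 17.2) in lung, and *Pde3a*, its relative in heart and smooth muscle, from 13.9 to 21.02 CPM (median 17.4) in white fat and 96.4 to 131 CPM (median 111) in lung. *Lpin1* and *Lpin2*, phosphatidate phosphatases, differed by 3.48 and -3.32, and the acyl-CoA synthetases *Acsl1* and *Acsl4* by 4.02 and -2.08. Per kilobase, *Lpin1* averaged 59.03 CPM and *Lpin2* 2.09 CPM in white fat, and 5.07 and 20.6 CPM in lung. *Elovl6*, which lengthens palmitate, was higher (2.21, SE 0.598, adjusted *P* = 0.00443) and *Elovl1* lower (-2.17, SE 0.0823, adjusted *P* = 3.03e-11). The call of *Elovl6* was lost in KO+AAV libraries alone (adjusted *P* = 0.0865). The pairs were chosen with earlier results of these data known, and the gene named first was the one taken as the fat gene. The counts of pairs therefore do not test how related genes differ between the tissues.

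**Figure D2:**
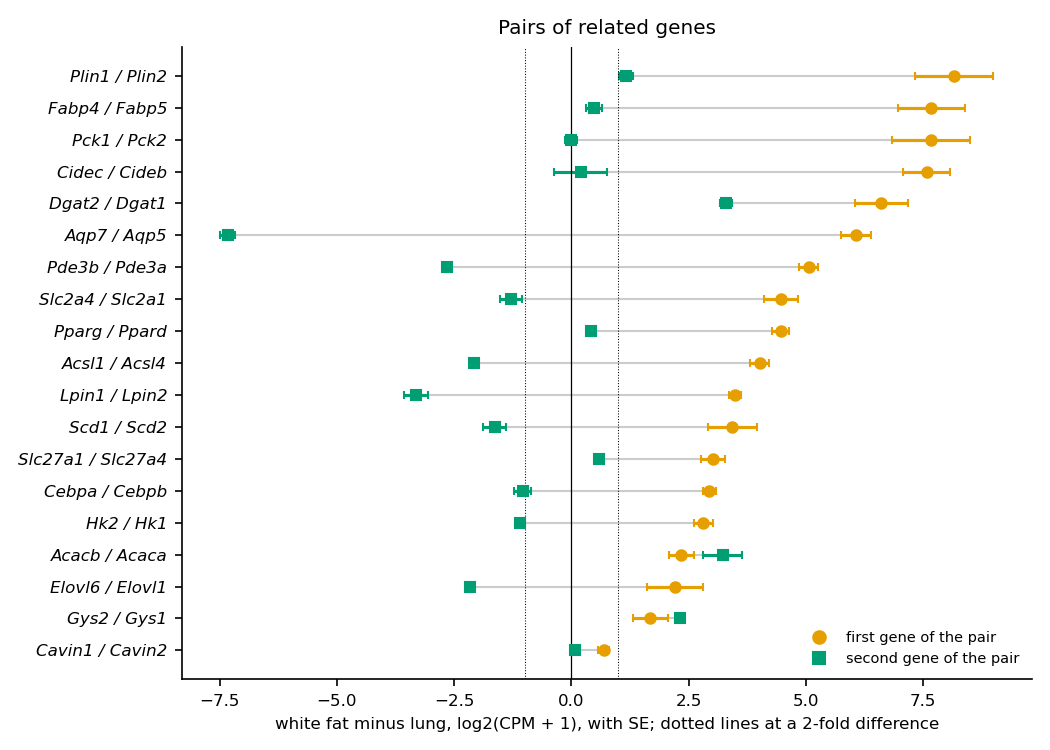
Differences of 19 pairs of related genes, white fat minus lung on the log2(CPM + 1) scale, with SE. Circles are the first and squares the second gene named, and dotted lines mark 2-fold. In 9 pairs the circle lies right of the upper line and the square left of the lower line, widest for *Aqp7* and *Aqp5*.

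Of 18 genes of thermogenic (brown and beige) fat, 16 were tested, 0 were higher, and 4 lower in white fat (median -0.54), against 7.79% and 18.2% of all genes. Without the 2 white fat libraries with *Foxj1*, 6 were lower. *Ucp1* was at 0.889, 0.276, and 0.0224 CPM in KO and 0.212, 0.06396, 326, and 0 CPM in KO+AAV white fat, and at 0.0418 to 137 CPM (median 0.145) in lung. White fat KO+AAV replicate 3 was thus the only white fat library above 1 CPM, and it also held the highest *Cidea*, a lipid droplet gene of brown fat, at 147 CPM against at most 6.97 CPM in the others. *Ppargc1a*, the coactivator of mitochondrial genes, overlapped between tissues (0.15, SE 0.1798, adjusted *P* = 0.461). *Tbx1*, sometimes used as a marker of beige fat, was lower, at 0.0667 to 4.57 CPM (median 0.338) in white fat and 22.99 to 48.7 CPM (median 34.5) in lung. *Adipoq* in white fat KO+AAV replicate 3 was at 2689.8 CPM, the median of white fat, and the part of brown fat in that library was not tested.

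Stromal genes divided evenly, with 6 of 16 higher and 6 lower (median -0.01). *Igf1* (insulin-like growth factor 1) ranged from 163 to 265 CPM (median 199) in white fat and 3.09 to 14.6 CPM (median 8.003) in lung, *Dcn* (the matrix proteoglycan decorin) differed by 3.02 (SE 0.207, adjusted *P* = 1.36e-08), and *Col15a1*, a basement membrane collagen around adipocytes, ranged from 66.2 to 719 CPM (median 649.8) in white fat and 1.99 to 13.6 CPM (median 8.11) in lung. *Pdgfra*, the growth factor receptor of fibroblasts and fat progenitors, was lower, at 55.5 to 79.7 CPM (median 61.02) in white fat and 229 to 298 CPM (median 258) in lung, and *Icam1*, an adhesion molecule, at 10.7 to 31.8 CPM (median 15.4) in white fat and 309.8 to 619.6 CPM (median 440.4) in lung. These genes are expressed by stroma of both tissues, so the list does not separate fat progenitors from lung fibroblasts.

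Among other cell types, 10 of 11 endothelial markers were lower and 0 higher (median -1.94), their summed level was 752 to 1521 CPM in white fat and 3986 to 5959 CPM in lung, and *Cdh5* (VE-cadherin) was at 156 to 282 CPM (median 179) in white fat and 653 to 1029.8 CPM (median 830.4) in lung. Lymphocyte markers were lower in 11 of 13 cases and higher in 0 (median -1.61), and lower in 7 without the 4 lung libraries with *Adipoq*. Macrophage markers went both ways, with 5 of 17 higher and 6 lower (median 0.64), and summed levels of 666 to 1055 and 609.7 to 1095 CPM. Without the 4 lung libraries with *Adipoq*, 7 were higher and 6 lower. *Cd163*, of resident tissue macrophages, ranged from 57.3 to 116 CPM (median 93.05) in white fat and 6.698 to 11.7 CPM (median 9.51) in lung, and the complement gene *C1qa* differed by 1.80 (SE 0.102, adjusted *P* = 1.81e-09). *Chil3*, abundant in alveolar macrophages, was lower, at 0.255 to 1.31 CPM (median 0.895) in white fat and 61.4 to 300.2 CPM (median 170.2) in lung. The part of these cells in the tissue differences was not tested.

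**Figure D3:**
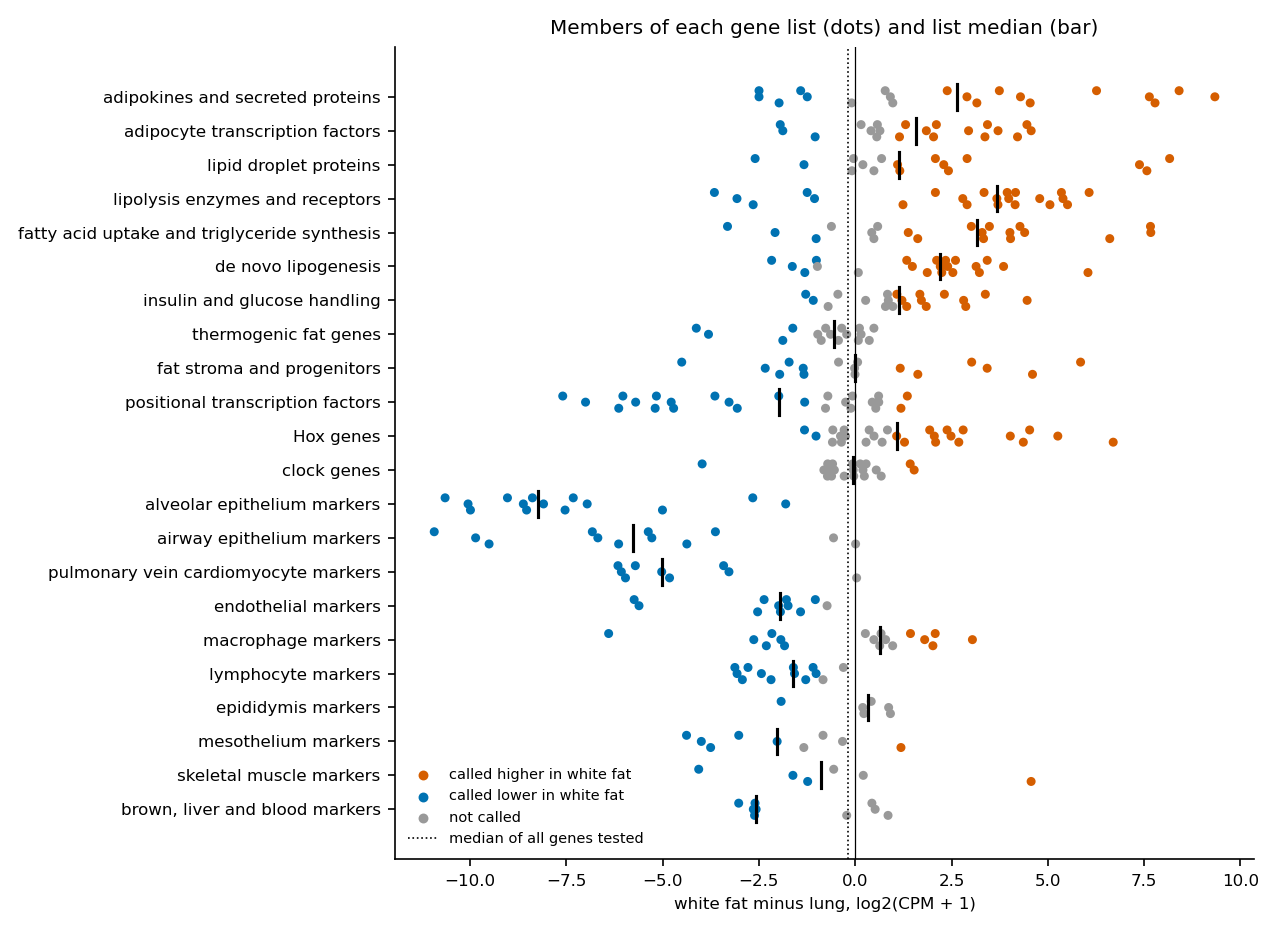
Differences of the members of each gene list, white fat minus lung on the log2(CPM + 1) scale, one dot per gene, colored by call, with the list median as a bar and the median of all genes as a dotted line. Medians of most fat lists lie right of the line, and those of thermogenic fat genes, lung epithelium, and endothelium left of it. The median of clock genes is close to 0, with members from -3.97 to 1.53.

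Transcription factors that mark where a tissue arises in the embryo also differed between the tissues. Of 25 such factors outside the Hox clusters, 2 were higher and 14 lower (median -1.99). *Nkx2-1*, the regulator of lung endoderm, ranged from 0 to 0.256 CPM (median 0.0426) in white fat and 183 to 233 CPM (median 214) in lung, a difference of -7.59 (SE 0.0688, adjusted *P* = 4.49e-17). *Foxf1*, of lung mesenchyme, ranged from 0.311 to 1.02 CPM (median 0.489) in white fat and 162 to 264 CPM (median 202) in lung, and *Tbx4*, of lung and hindlimb mesenchyme, from 0.0637 to 0.716 CPM (median 0.217) in white fat and 72.8 to 105 CPM (median 81.97) in lung. *Tbx5*, *Foxa1*, and *Sox2* were likewise lower, at -5.19, -6.14, and -5.16. *Sox2* was at 0 reads in 4 of the 7 white fat libraries. The factors higher in white fat were *Tbx18*, at 2.87 to 4.27 CPM (median 3.93) in white fat and 0.229 to 2.25 CPM (median 0.698) in lung, and *Wt1*, which marks mesothelium and visceral fat precursors, at 5.61 to 24.3 CPM (median 9.22) in white fat and 1.45 to 8.68 CPM (median 3.76) in lung. The *Wt1* call (1.19, SE 0.366, adjusted *P* = 0.00989) was lost without white fat KO+AAV replicate 3 (0.98), and in KO libraries alone and KO+AAV libraries alone it did not pass the test. *Tbx15*, a regulator of subcutaneous fat, was near the floor in both tissues, at 0.111 to 0.234 CPM (median 0.134) in white fat and 0.0914 to 0.455 CPM (median 0.222) in lung.

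Hox genes, which lie in 4 clusters and record position along the body axis, differed most widely in the *Hoxc* and *Hoxd* clusters, and for some genes of the *Hoxa* and *Hoxb* clusters. Of 39 genes, 27 were tested, 14 were higher, and 2 lower (median 1.08), with 1 lower under TMM scaling. All tested genes from *Hoxc4* to *Hoxc9* were higher. *Hoxc8* was at 90.9, 83.2, and 141 CPM in KO and 118, 82.6, 112, and 106 CPM in KO+AAV white fat, and had 0 reads in all 8 lung libraries. With a floor of 3 reads over the 8 lung libraries together, it was at least 12273-fold higher. *Hoxc6* ranged from 31.02 to 52.2 CPM (median 43.6) in white fat and 0 to 0.423 CPM (median 0.0231) in lung, and *Hoxc4*, *Hoxc5*, and *Hoxc9* differed by 4.03, 4.53, and 2.80, on a scale where the added 1 CPM understates the change of low genes. The summed level of the 9 *Hoxc* genes was 173 to 247 CPM in white fat and 0.210 to 2.003 CPM in lung, and that of the 9 *Hoxd* genes 25.7 to 73.1 and 0.471 to 1.41 CPM, with *Hoxd8* at 20.01 to 54.3 CPM (median 23.2) in white fat and 0.2095 to 0.911 CPM (median 0.374) in lung. The sums of the *Hoxa* genes overlapped, at 72.8 to 123.8 and 64.2 to 111.9 CPM. Within that cluster *Hoxa7* was higher (2.05, SE 0.1903, adjusted *P* = 3.2e-07) and *Hoxa5*, a gene of lung development, lower (-1.32, SE 0.173, adjusted *P* = 1.07e-05). In the *Hoxb* cluster 4 of 8 tested genes were higher and 0 lower, although the summed levels overlapped. *Hoxb8* was at 31.3 and 29.4 CPM in the 2 white fat libraries with *Foxj1*, 4.29 to 8.37 CPM in the others, and 0.747 to 1.68 CPM in lung. *Hoxd8*, at 51.1 and 54.3 CPM, and the *Hoxd* sum, at 69.6 and 73.1 CPM, were also highest in these 2 libraries. The other white fat libraries were at most at 27.2 CPM for *Hoxd8* and 37.96 CPM for the sum. *Hoxb5* overlapped between tissues (-0.59, SE 0.158, adjusted *P* = 0.00408). *Hoxb9* had 0 reads in lung and was at 38.7 and 26.7 CPM in the 2 white fat libraries with *Foxj1*, against 1.56 to 4.21 CPM in the others. With the same floor it was at least 1344-fold higher over all 7 white fat libraries, at least 761-fold without KO replicate 3, and at least 279-fold without both libraries with *Foxj1*. Its fitted difference was 2.69 with and 1.70 without these libraries, and the higher Hox genes were 12 rather than 14. Reads were counted without a stated strand, and the exons of several Hox genes overlap antisense transcripts, 20.4% of the bases of *Hoxa7* among them.

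**Figure D4:**
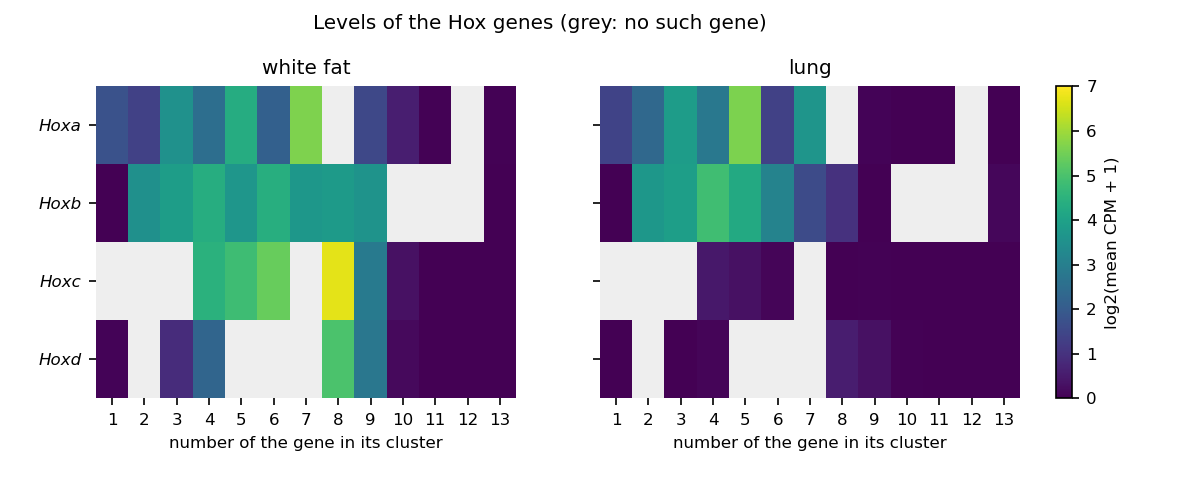
Mean levels of the 39 Hox genes as log2(mean CPM + 1), by cluster (rows) and number in the cluster (columns), in white fat (left) and lung (right). *Hoxc4* to *Hoxc8* and *Hoxd8* are bright in white fat, highest at *Hoxc8*, *Hoxc9* is dimmer, and all of these are dark in lung. *Hoxa7* is brighter in white fat than in lung. *Hoxa3* to *Hoxa5* and *Hoxb2* to *Hoxb6* are filled in both, while *Hoxb8* and *Hoxb9* are dark in lung.

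Markers of lung epithelium were low in white fat. All 14 alveolar markers were lower (median -8.24), and their summed level was 168 to 274 CPM in white fat and 18425 to 32842 CPM in lung. Most of the sum in each white fat library was *Abca3*, at 132 to 186 CPM in white fat and 450 to 682 CPM in lung. Of 12 airway markers 10 were lower and 0 higher (median -5.76). *Foxj1* was called lower (-5.37, SE 1.16, adjusted *P* = 0.000891) with overlap through the 2 white fat libraries that held it, and edgeR did not call it (adjusted *P* = 0.16). The mesothelium list, summed, ranged from 29.7 to 559 CPM in white fat and from 733 to 1106 CPM in lung, with 1 of 9 genes higher and 5 lower (median -2.03). It includes epithelial keratins such as *Krt8*, at means of 49.02 CPM in white fat and 258.5 CPM in lung, so the sum does not measure mesothelium alone. Of its other members, *Upk3b* had means of 74.9 and 88.3 CPM, and *Msln* 25.9 and 81.4 CPM. Cardiomyocyte markers, such as those of the muscle sleeve of pulmonary veins, were lower in 8 of 9 cases (median -5.03). *Myh6* (α-myosin) was at 41.7, 269, 317, and 440.3 CPM in KO and 1574, 699, 2092, and 2241 CPM in KO+AAV lung, and at most 17.6 CPM in white fat. The KO+AAV lung libraries were all above KO for *Myh6* and for the summed list. *Actc1* overlapped, with KO replicate 4 at 210 CPM and KO+AAV replicate 2 at 143 CPM. This contrast within lung was not tested, nor was the part of heart or vein muscle in each library. Of skeletal muscle markers 6 of 9 were tested, with 1 higher and 3 lower (median -0.90). A pooled list of brown fat, liver, and blood markers was higher in 0 and lower in 5 of 9 cases (median -2.57), with 1 higher without the 2 white fat libraries with *Foxj1*. Its members went different ways. The blood genes *Hba-a1*, *Hba-a2*, *Hbb-bs*, *Hbb-bt*, and *Alas2* had lower means in white fat, with *Hba-a1* at 164.9 CPM against 1039 CPM in lung. Means of *Ucp1* (46.8 against 18.8 CPM), *Alb* (32.97 against 15.2), *Apoa1* (10.6 against 3.87), and *Ttr* (4.64 against 1.48) were higher in white fat, without a call. Of 13 epididymis markers 6 were tested, with 0 higher and 1 lower (median 0.32). Their summed level was 34.1 CPM in white fat KO replicate 3 and 20.6 CPM in KO+AAV replicate 2, the libraries with *Foxj1*. It was at most 1.53 CPM in the other white fat libraries compared and 2.33 to 5.94 CPM in lung. In white fat KO replicate 2, left out, it was 55496 CPM. The part of epididymis in these libraries was not tested.

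Lung libraries held adipocyte transcripts in unequal amounts. The median level of 9 adipocyte genes, as a percent of their white fat means, was 0.0105, 0.0705, 2.25, and 0.1397% in KO and 1.26, 0.185, 2.86, and 0.729% in KO+AAV lung. KO replicate 3 and KO+AAV replicates 1, 3, and 4 were the libraries with *Adipoq* above 10 CPM. In each lung library *Lep* was at a lower percent than *Adipoq*, for example 0.568% against 2.04% in KO+AAV replicate 3. *Thrsp* was at a higher percent than *Adipoq* in all 8, with 8.69% in that library. The ratio of *Lep* to *Adipoq* was 19.99% in white fat KO+AAV replicate 2 and 49.5% to 69.4% in the other white fat libraries. In the 6 lung libraries with *Lep* reads it was 1.21% to 15.3%, below all of white fat. The part of fat around lung in these values was not tested. Without the 4 lung libraries with *Adipoq* above 10 CPM, a choice that itself uses *Adipoq*, the differences were 10.08 for *Adipoq*, 10.39 for *Lep*, and 10.10 for *Plin1*.

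**Figure D5:**
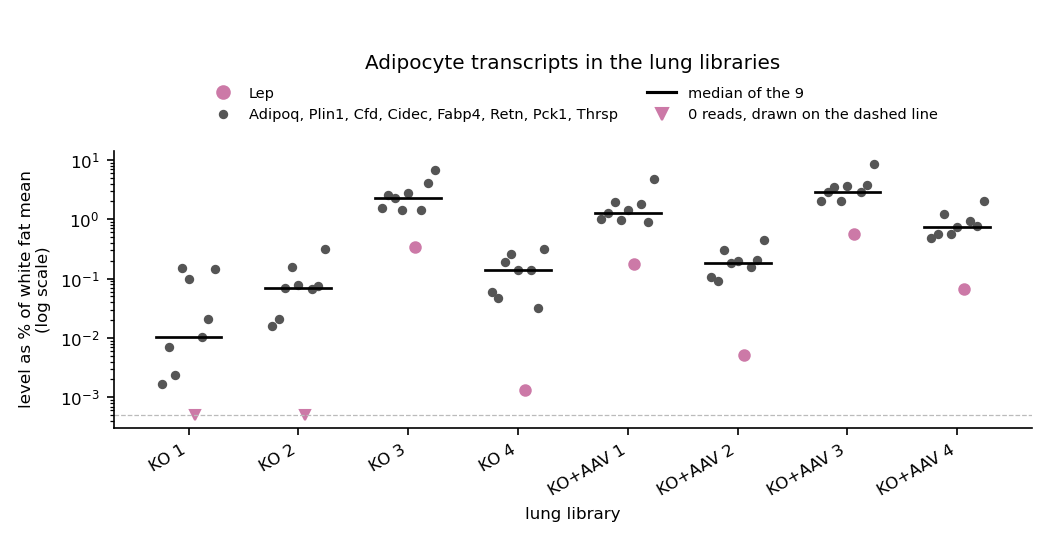
Levels of 9 adipocyte genes in each lung library as a percent of their white fat mean, on a log scale. Dots are genes, with *Lep* in color, bars are the median, and triangles on the dashed line mark 0 reads. The median runs from 0.0105% in KO replicate 1 to 2.86% in KO+AAV replicate 3, and *Lep* lies below the other genes in each library.

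Of 20 clock genes, 2 were higher and 1 lower (median -0.06), against 7.79% and 18.2% of all genes. Lower genes were 2 without the 4 lung libraries with *Adipoq*, and also 2 without the 2 white fat libraries with *Foxj1*. *Clock*, the partner of BMAL1, ranged from 113 to 141 CPM (median 129.8) in white fat and 75.8 to 96.5 CPM (median 88.7) in lung, under 2-fold apart. *Dbp*, an output gene that BMAL1 with CLOCK activates, was at 6.01 to 11.8 CPM (median 9.08) in white fat and 6.52 to 10.5 CPM (median 8.44) in lung, with overlap. *Nr1d1* (REV-ERBα), another such gene, was higher by 1.53 (SE 0.185, adjusted *P* = 4.95e-06) at low levels, 3.25 to 10.1 CPM (median 6.43) in white fat and 0.8905 to 2.31 CPM (median 1.58) in lung. *Bhlhe41* (DEC2, a repressor of E-boxes) was higher by 1.43 (SE 0.318, adjusted *P* = 0.00111), a call lost in KO+AAV libraries alone (adjusted *P* = 0.0587). *Ciart*, a repressor of BMAL1 with CLOCK, was the gene called lower, at 0.279 to 1.22 CPM (median 0.556) in white fat and 18.5 to 37.6 CPM (median 24.3) in lung. *Per2* was not called (-0.81, SE 0.197, adjusted *P* = 0.00203), and was called lower without the 4 lung libraries with *Adipoq* (-1.01, adjusted *P* = 0.00841). *Bhlhe40* (DEC1) was at 79.7, 158, and 129.9 CPM in white fat KO replicates 3 and 4 and KO+AAV replicate 2, and at 11.5 to 16.8 CPM in the other 4, with lung between at 31.1 to 47.7 CPM (median 40.5). All libraries come from the same hour, so no rhythm was measured.

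Whether the muscle vector changed the difference between the tissues was tested as an interaction. At an adjusted *P* under 0.05 limma called 0 genes, 0.0% of those tested, with 872 at an unadjusted *P* under 0.05 and a smallest adjusted *P* of 0.184. edgeR also called 0, DESeq2 20, and limma with library weights 54. The count was 180 without lung KO+AAV replicate 2 and 2 without lung KO replicate 4. Within white fat, KO+AAV against KO gave 0 genes, 0.0%, with 405 at an unadjusted *P* under 0.05 and a smallest adjusted *P* of 0.477. Here edgeR called 0 and DESeq2 21, and limma called 2 without white fat KO+AAV replicate 1 and 1 without white fat KO+AAV replicate 2. Of the 3 markers within white fat, KO+AAV minus KO was -0.01 (SE 1.07) for *Adipoq*, -0.31 (SE 0.776) for *Lep*, and -0.13 (SE 1.22) for *Plin1*. For all genes the fit shares its estimate of the spread with lung, where these markers vary widely. The counts of 872 and 405 genes were each under a share of 0.05 of the 21309 tested, the share expected on average with no change. The 0 calls therefore do not show that no gene changed. In simulated data with these library sizes and groups, limma recovered 81.8% of 4-fold and 41.2% of 2-fold changes within white fat for genes at 1 CPM or more. For the interaction it recovered 57.1% and 13.5%. Each simulated gene had a single mean and a single spread over both tissues, apart from the added change. The rates therefore do not say what size of change would be found in the 3 markers, which differ between tissues in level and spread.

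Levels in other tissues, from 40-week libraries of the KO and KO+AAV groups, are given with no test. *Adipoq* was at 0 to 4.04 CPM in 8 heart, 0 to 0.108 CPM in 8 liver, and 0.965 to 6.43 CPM in 10 gastrocnemius libraries. *Lep* was at 0 to 0.432 CPM in heart, 0 reads in liver, and 0 to 1.29 CPM in gastrocnemius. The 4 lung libraries with *Adipoq* above 10 CPM thus held more *Adipoq* than any of these. *Slc2a4* was at 122 to 314 CPM in heart and 421 to 695 CPM in gastrocnemius, so white fat overlapped heart and lay below gastrocnemius. *Hoxc8* was at 0 reads in heart, at most 0.0232 CPM in liver, and 0.191 to 1.29 CPM in gastrocnemius, below all white fat libraries.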

How the data were processed

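Poly(A) RNA was sequenced from white fat and lung of *Bmal1*-KO and KO+AAV mice. Per the study's methods, the authors aligned reads with HISAT2 to GRCm38 and counted them with HTSeq, and they deposited a signal per gene, the count divided by 1 DESeq2 size factor per library, set for each tissue alone. Annotation release and strand setting are not given in the sources used here. Low values gave the worth of 1 read, and 100% of values came out as whole reads (tolerance 0.02). Each library was divided by its sum to give CPM. Symbols came from GENCODE vM21 (55141 of 55401 genes). Genes with a mean normalized count above 5 were tested by limma 3.58.1 with an intensity trend on log2(CPM + 1), with a group for each tissue and genotype and the tissue contrast averaged over KO and KO+AAV. All adjusted *P* values are Benjamini-Hochberg values from limma over all genes tested unless edgeR or DESeq2 is named, and a call needs an adjusted *P* under 0.05 and, between tissues, a difference of at least 2-fold. Single markers were tested by exact two-sided permutation (scipy 1.17.1). The count tests, edgeR 4.0.16 and DESeq2 1.42.0, were run as alternatives on the recovered reads. A step on simulated data with 21309 genes tested the limma fit, with a single mean and a single spread per gene over both tissues before known changes were added. With 3.27% to 5.62% of white fat and 1.91% to 3.07% of lung reads on mitochondrial genes, CPM without these genes was another alternative, beside TMM, median-of-ratios factors, other pseudocounts, filters and folds, library weights, single genotypes, and each library left out.

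The genes named are *Adipoq*, *Lep*, *Plin1*, *Arntl*, the 10 with the largest difference in each direction among called genes without overlap, and, from the gene lists and pairs, the members with the largest differences or best known. The members and lists were chosen with earlier results of these data known. *Foxj1*, *Krt8*, *Ucp1*, and *Gpx5* were named for libraries after their values were seen. Of the 24 pairs of libraries within a tissue and group, none agreed within sampling noise, and other pairs were not compared. Intervals and floors cover counting error only. A second table of normalized counts from another muscle experiment was not used. Some genes are not reported here.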

Additional observations from a re-analysis of the deposited data

Results flagged for a closer look

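Within each tissue, the highest or lowest library was set against the others on the log2(CPM + 1) scale by Dixon's criterion, which chance passes in about 1 in 20 groups. Of 276 groups 26 passed, against 13.8 expected by chance. The groups are genes and lists from the same libraries, so they are not independent, and the excess was not tested. White fat KO+AAV replicate 2 was the library far from the others for 11 genes, at 437.4 CPM for *Lep*, 1366 for *Plin1*, 9518 for *Car3*, 875.8 for *Aoc3*, 690.4 for *Vegfa*, 1783 for *Hp*, 587.2 for *Cebpa*, 192.9 for *Npr3*, 212.5 for *Gpihbp1*, 293.9 for *Insr*, and 66.22 for *Col15a1*. It is also a library with *Foxj1*, and the part of that in these values was not tested. White fat KO+AAV replicate 3 stood apart for *Ucp1* (325.9 CPM), *Cidea* (147.5 CPM), the summed thermogenic list (753.4 CPM), and *Foxa1* (0.2189 CPM). White fat KO replicate 3 stood apart for *Cd36* (2933 CPM) and the summed list of fatty acid uptake and triglyceride synthesis (28350 CPM), and KO replicate 4 for *Hk2* (289 CPM).

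In lung, KO replicate 1 stood apart for *Cd36* (1777 CPM), *Dcn* (42.05 CPM), and the summed stroma list (2321 CPM), KO replicate 3 for *Adrb1* (77.9 CPM), *Hoxc6* (0.4228 CPM), and *Hoxc5* (0.8011 CPM), KO replicate 4 for *Sec14l3* (2197 CPM), and KO+AAV replicate 2 for *Apln* (13.7 CPM). In the white fat library left out of the comparison, KO replicate 2, *Gpx5* was at 18005 CPM, above its level in all libraries compared.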

How the results depend on the processing

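All 132 alternative values of *Adipoq*, *Lep*, *Plin1*, and *Arntl* kept their direction and their side of the threshold, as did 3597 of 3656 values of other named genes, with 46 calls lost and 13 gained. No value reversed. Of 276 counts of genes, 246 stayed within 1.5 times of the reported count. Between tissues edgeR called 8521 genes (3575 higher) and DESeq2 3551 higher genes, while a 4-fold limit gave 2300, 564 higher and 1736 lower. Against 0 genes reported, the interaction gave 1 lower gene with a pseudocount of 0.1, 20 by DESeq2 (1 higher, 19 lower), 54 with library weights (1 higher, 53 lower), and 0 to 180 with 1 library left out, all lower. Within white fat it was 1 lower gene with no filter, 1 lower gene with library weights, 21 by DESeq2 (10 higher, 11 lower), and 0 to 2 with 1 library left out (0 to 1 higher, 0 to 1 lower). The cause of these changes was not tested. DESeq2 gave no adjusted *P* for 806 genes, *Cfd* and *Retn* among them. The labels do not say that a replicate number marks a mouse, and the values did not meet the criterion for treating libraries as pairs, a correlation over 0.1 in each pair. Correlations of same-numbered libraries across tissues ran from -0.19 to 0.26, 4 of 7 over 0.1, and 4 white fat libraries correlated best with their own number. With genotype and number as a block, 5509 genes were called between tissues (1652 higher, 3857 lower) and 0 for the interaction. Counts without the libraries holding *Foxj1*, *Ucp1*, or *Adipoq* were chosen after seeing the data. In simulated data 13.8% of 4-fold tissue changes were recovered for genes under 1 CPM, against 81.7% at 1 CPM or more. The parts of depth and of the added 1 CPM in this were not tested, and with 0.1 CPM added 8241 genes were called between tissues.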
